A study of Mus musculus with 6 samples.

Results

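The genes described here make, break down, sense and answer to oxysterols, the oxidised forms of cholesterol. They were named as a set of 9 mouse genes: Ch25h, Cyp27a1, Cyp7b1, Gpr183, Nr1h2, Nr1h3, Abca1, Abcg1 and Mylip. A gene was represented by the probe set, a group of array probes for 1 transcript, that was annotated to its symbol alone and had the highest mean over all arrays. In this way 8 of the 9 genes were measured, of 22180 genes in all, and Nr1h2 was not analysed here. The genes were chosen by the measured difference of Ch25h, the largest fall of any gene in the comparison described below, so the values of the set in that comparison are a description and not a test.

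The 6 arrays came from MC3T3-E1 cells, an established line of mouse pre-osteoblasts derived from calvaria, the flat bones of the skull. In 3 samples the confluent cells received NU7441 at 1 µM, and in 3 samples they received its solvent, DMSO. To start osteoblast differentiation both groups were given ascorbic acid at 50 µg/ml and β-glycerophosphate at 10 mM, and whole-cell RNA was taken on day 14. NU7441 inhibits the catalytic subunit of the DNA-dependent protein kinase, and the series concerns the phosphorylation of alphaNAC by that kinase in osteoblast formation. All samples are of 1 cell line, and both groups carry the replicate numbers 1 to 3. Nothing states whether these were separate cultures, so the spread between them may be technical.

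Cholesterol is hydroxylated on its side chain by Ch25h, an enzyme of the endoplasmic reticulum, and by Cyp27a1, an enzyme of the mitochondrion. The products bind the liver X receptors, the nuclear receptors Nr1h3 (LXRα) and Nr1h2 (LXRβ), which with an RXR partner switch on genes of cholesterol export such as Abca1 and Abcg1 and the ubiquitin ligase gene Mylip. Cyp7b1 hydroxylates the same oxysterols further, and the product made from 25-hydroxycholesterol is the ligand of Gpr183 (EBI2), a receptor that guides migrating immune cells. In mouse macrophages Ch25h is induced by interferon.

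Bases before the start of Ch25h and of Abca1 are shown because the first gene had the largest difference of the set and the second is a classical LXR target. They are RefSeq sequences of the GRCm38.p6 assembly on the minus strand, the first at chr19:34475149-34475398 and the second at chr4:53159989-53160145, and run 5′ to 3′. The windows searched were the 250 bases before the start given in the RefSeq promoter table, which can lie inside the gene where another transcript starts further upstream. For Abca1 the last 93 bases of the window lay inside the span of the gene table and are not printed, and the windows of Cyp27a1 and Nr1h3 lay inside their genes as a whole. Capitals mark the matches to the motifs named below.
Ch25h: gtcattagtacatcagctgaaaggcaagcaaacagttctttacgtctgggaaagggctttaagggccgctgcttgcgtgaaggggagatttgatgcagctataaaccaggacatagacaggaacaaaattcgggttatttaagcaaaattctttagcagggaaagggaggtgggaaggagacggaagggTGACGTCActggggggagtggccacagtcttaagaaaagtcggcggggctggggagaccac
Abca1: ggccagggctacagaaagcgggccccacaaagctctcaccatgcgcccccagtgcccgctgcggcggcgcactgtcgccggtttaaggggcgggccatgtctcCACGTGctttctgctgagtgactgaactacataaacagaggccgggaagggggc
A search of 4 motifs on both strands covered TGACGTCA, the cAMP response element, TGANTCA, the AP-1 element, CACGTG, the E-box, and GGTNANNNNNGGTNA, a loose form of the DR4 element to which LXR and RXR bind. None of these motifs contains another. The Ch25h window held TGACGTCA at 61 to 54 bases before the start, a motif found in 1.55% of all 32851 windows of this length. The Abca1 window held the DR4 form as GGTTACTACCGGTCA on the opposite strand, at 67 to 53 bases before that start and so inside the span of the gene, which 0.621% of all windows matched. It also held CACGTG at 147 to 142 bases, present in 6.02% of windows. TGANTCA, present in 6.75% of windows, was not in the windows of the set. RefSeq windows were matched for 7 of the 9 genes, Nr1h2 among them and Nr1h3 with a pair of starts, and those of Cyp27a1, Gpr183, Nr1h2, Nr1h3 and Mylip held none of the 4 motifs in these letters. Their base composition varied widely, with a G+C share between 32.0% for Gpr183 and 71.2% for Mylip, against a median of 52.4% over all windows.

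The log2 signal had a median of 6.38 to 6.42 and a lower quartile of 5.11 to 5.16 in each array, and arrays correlated at 0.989 or more with each other. Of the osteoblast markers 9 of 12 were measured. Their mean level was 10.50 to 11.26 in NU7441 and 10.01 to 10.91 in DMSO, and 9 of 9 were higher in NU7441, with a median log2 difference of 0.53. The differences ran from 0.04 (SE 0.06) for Col1a2 to 0.97 (SE 0.58) for Phex in the fit without pairs. The groups overlapped for all of them but Col1a1 and Col1a2. With same-numbered arrays as pairs, the SE was 0.10 for Phex and 0.06 for Pth1r, which differed by 0.81. In that fit the intervals of Alpl, Bglap, Ibsp, Sp7, Pth1r and Phex lay above 0. Those of Col1a1, Col1a2 and Dmp1 included 0. Apart from Col1a1 and Col1a2, these markers were highest in the replicate 3 array of both groups. Whether the numbers pair the samples is not known. The 8 macrophage markers averaged 6.29 to 6.31 in NU7441 and 6.31 to 6.39 in DMSO, with 2 of 8 higher in NU7441. Ptprc, the leukocyte antigen CD45, was the dimmest, at 4.59 in both groups, below every array's lower quartile. Cd68, Fcer1g, Lyz2 and Tyrobp lay above every array's median. Cd68, the brightest, was at 7.69 in NU7441 and 7.92 in DMSO, a difference of -0.23 (SE 0.19). It was lower in NU7441 in each same-numbered pair, with the replicate 3 array lowest in both groups. The 3 measured B cell markers averaged 5.27 to 5.43 in NU7441 and 5.03 to 5.34 in DMSO, and the 4 endothelial markers 5.69 to 5.97 in NU7441 and 5.78 to 5.95 in DMSO. The 4 chondrocyte markers averaged 7.57 to 7.74 in NU7441 and 7.54 to 7.72 in DMSO, with 2 of 4 higher in NU7441. Their levels ran from 5.7 for Acan to 10.4 for Sox9 in both groups. Col2a1 differed by 0.28 (SE 0.14), higher in NU7441 in each same-numbered pair with overlapping groups. The 5 adipocyte markers averaged 5.47 to 5.64 in NU7441 and 5.73 to 5.77 in DMSO, with 2 of 5 lower in NU7441 and a median difference of 0.02. Fabp4, a fatty acid carrier, differed by -0.99 (SE 0.19), while Adipoq, which encodes adiponectin, differed by 0.08 (SE 0.14). The markers other than Fabp4 lay between -0.10 for Cidec and 0.13 for Plin1, so the lower average came from Fabp4. The part of these markers in the results below was not tested.

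Setting NU7441 against DMSO compares the transcripts of differentiating osteoblasts with and without the inhibitor. Whether a difference came through the kinase was not tested. Among the oxysterol and LXR genes, the 25-hydroxylase Ch25h had 44.2% of its DMSO signal in NU7441, while the other 7 genes differed by at most 0.30 on the log2 scale, with overlapping groups. The LXR targets did not share a direction, Abca1 being lower and Abcg1 and Mylip higher in NU7441. Across all 22180 genes, limma called 0 at a Benjamini-Hochberg adjusted p under 0.05, 0% of genes, and so 0 of the 8. An unadjusted p under 0.05 was reached by 1506 of all genes (6.79%), and with same-numbered samples as pairs by 2078 (9.37%), again with 0 called. Intervals are from the fit without pairs unless stated. In bulk RNA, fewer cells with a transcript and less of it per cell cannot be told apart.

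Ch25h was at 8.07, 7.89 and 7.60 in NU7441 1 to 3, against 9.08, 9.32 and 8.68 in DMSO 1 to 3 (log2 signal). Every NU7441 array lay below every DMSO array, the gap between the groups being 0.61. The means were 7.85 ± 0.24 in NU7441 and 9.03 ± 0.32 in DMSO (SD, n = 3 each), a difference of -1.18 (SE 0.18, 95% interval -1.61 to -0.75). On the linear scale this is 0.44-fold, with an interval of 0.33-fold to 0.60-fold. Between same-numbered samples the differences were -1.01, -1.43 and -1.08, so each pair showed more than a 2-fold lower signal. Separation of all NU7441 arrays below all DMSO arrays was found for 6.64% of genes, and a difference of at least 2-fold downwards for 3 genes, or 0.0135%. The next largest falls belonged to Atp1b1, a sodium pump subunit, at -1.13 (SE 0.19), and the carbonic anhydrase Car6 at -1.05 (SE 0.49). The choice of the set rests on these same values.

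A second probe set annotated to Ch25h alone, dimmer than the one used, was at 6.50, 6.42 and 6.37 in NU7441 1 to 3, against 6.71, 6.84 and 6.76 in DMSO 1 to 3. Its groups did not overlap either, with a gap of 0.21. The difference was -0.34, with means of 6.43 ± 0.07 in NU7441 and 6.77 ± 0.07 in DMSO (SD, n = 3 each). Both probe sets thus gave the lower value in every NU7441 array, but the sizes disagreed, 0.79-fold for the dimmer probe set against 0.44-fold. The size of the change in the transcript is therefore uncertain, and the mean of the probe sets gave a difference of -0.76. That is smaller in size than the -1.13 of Atp1b1. The rank of Ch25h as the largest fall, and its place among the genes at least 2-fold lower, hold for the brighter probe set.

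**Figure D1:**
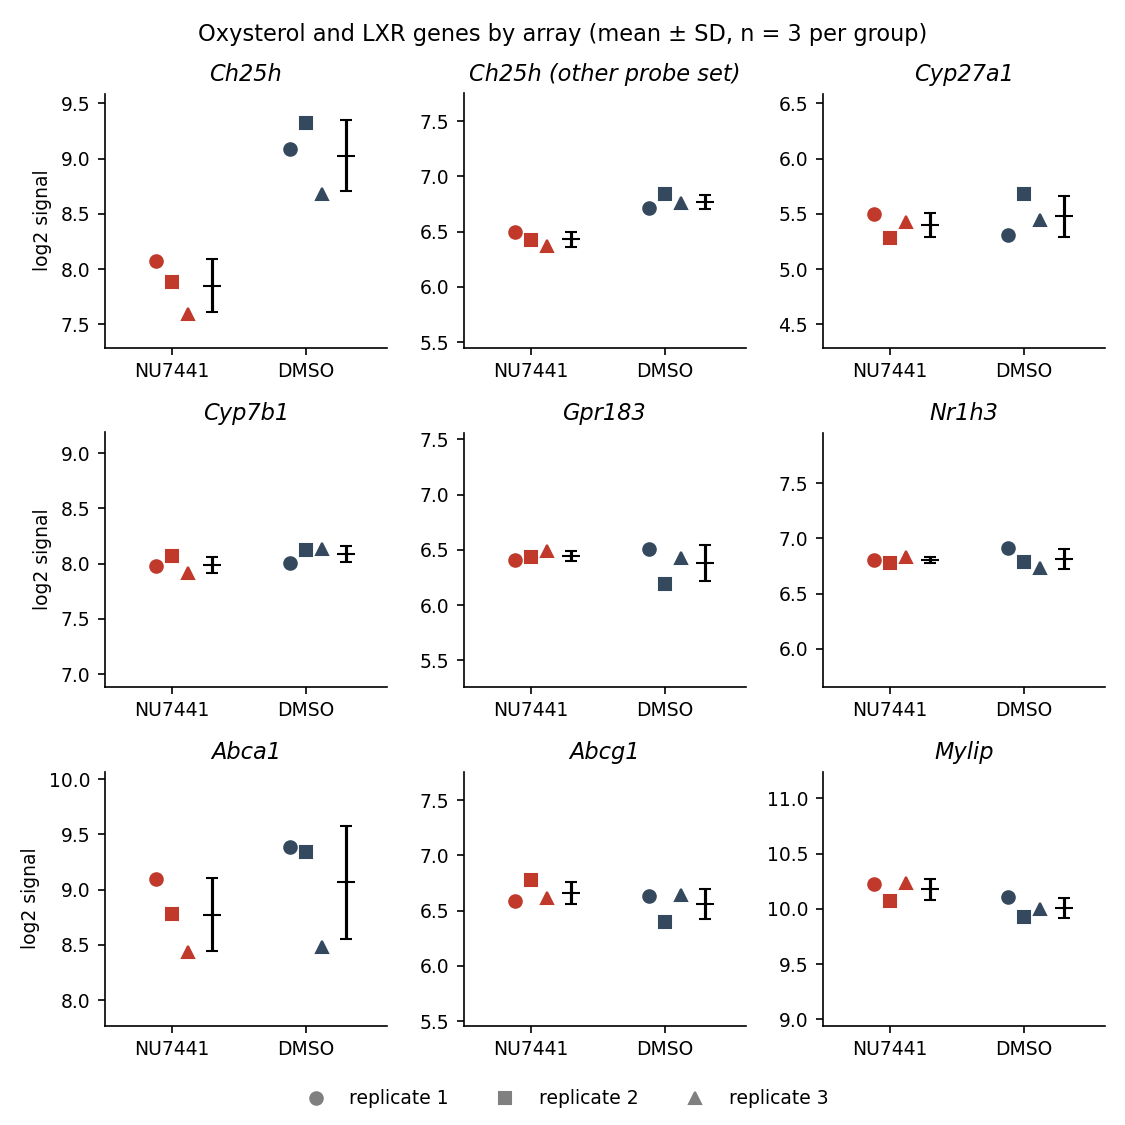
Log2 signal (vertical axis, each panel spanning the same height) of the 8 measured oxysterol and LXR genes and of the second Ch25h probe set in each array, with marker shape for the replicate number and bars for the mean ± SD of 3 arrays. The groups are apart for both Ch25h probe sets and overlap for the other 7 genes. The replicate 3 arrays are lowest in both groups for Abca1 and for the brighter Ch25h probe set.

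Cyp27a1, the mitochondrial sterol hydroxylase, was at 5.50, 5.28 and 5.43 in NU7441, against 5.31, 5.68 and 5.45 in DMSO. The groups overlapped and the difference was -0.08 (SE 0.11), with an interval of -0.34 to 0.18. These values lie close to the arrays' lower quartile, so little signal stands behind them. Cyp7b1, the oxysterol 7α-hydroxylase, was at 7.98, 8.07 and 7.91 in NU7441, against 8.00, 8.13 and 8.13 in DMSO. It was lower in NU7441 in each same-numbered pair, by 0.02 to 0.21 in size, and the groups overlapped. The difference was -0.10 (SE 0.07), with an interval of -0.27 to 0.07.

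Of the sensors, Nr1h3 was at 6.80, 6.78 and 6.83 in NU7441, against 6.91, 6.79 and 6.73 in DMSO. The NU7441 values lay inside the range of the DMSO values, and the difference of -0.01 (SE 0.07) had an interval of -0.18 to 0.16, the narrowest of the 8. Gpr183 was at 6.41, 6.44 and 6.49 in NU7441, against 6.51, 6.19 and 6.43 in DMSO. Here too the NU7441 values lay inside the DMSO range, with a difference of 0.07 (SE 0.09, interval -0.15 to 0.29). Gpr183 lay near the arrays' medians and Nr1h3 slightly above them.

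Among the LXR targets, Abca1, the exporter that loads cholesterol onto apolipoprotein A-I, was at 9.10, 8.78 and 8.44 in NU7441, against 9.38, 9.34 and 8.48 in DMSO. Its spread within the groups was the widest of the set, at ± 0.33 in NU7441 and ± 0.51 in DMSO. The replicate 3 array was the lowest of each group, as it was for the brighter Ch25h probe set. The difference was -0.30 (SE 0.27), with an interval of -0.93 to 0.34. Between same-numbered samples it was -0.28, -0.56 and -0.04, lower in NU7441 in each. With the replicate number as a block the SE was 0.11 and the interval -0.58 to -0.01, which leaves out 0. Without DMSO 3 the difference was -0.59, and without any other single array it lay between -0.46 and -0.13. Its size thus depended most on DMSO 3.

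Abcg1, which exports cholesterol to high-density lipoprotein, was at 6.59, 6.78 and 6.62 in NU7441, against 6.64, 6.40 and 6.64 in DMSO. The groups overlapped, and the difference of 0.10 (SE 0.09, interval -0.12 to 0.32) came from the pair numbered 2, at 0.38, the others being at -0.05 and -0.02. Without DMSO 2 the difference was 0.02. Mylip (IDOL), the ligase that marks the LDL receptor for degradation, was at 10.22, 10.07 and 10.23 in NU7441, against 10.10, 9.92 and 10.00 in DMSO. It was higher in NU7441 in each pair, by 0.12 to 0.23, although the groups overlapped. Its difference was 0.17 (SE 0.08, interval -0.02 to 0.35), and with the replicate block the interval was 0.01 to 0.33. For the 7 genes from Cyp27a1 to Mylip the 95% interval excluded a 2-fold change of array signal in either direction. For Ch25h it did not.

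**Figure D2:**
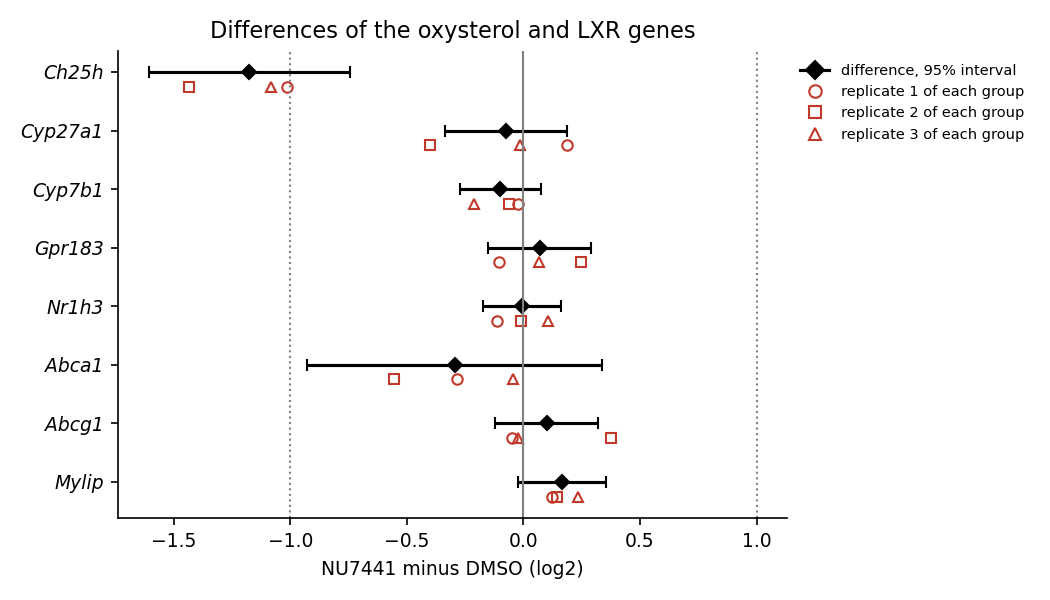
Log2 difference NU7441 minus DMSO (horizontal axis) for each gene, with its 95% interval from limma without pairs (filled diamond and bar) and the difference within each same-numbered pair of arrays (open markers). Dotted lines mark 2-fold changes. Ch25h lies at -1.18, and the intervals of the other 7 genes in this fit include 0.

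Over the 6 arrays the LXR targets did not run with Ch25h as a group. Pearson's r with Ch25h was 0.68 for Abca1, -0.59 for Abcg1 and -0.75 for Mylip, and 0.63 for Cyp7b1. These are descriptions over 6 arrays that share the 2 treatment groups. Of 1235 other genes with an SD of at least 0.25 over the arrays, the 5 most like Ch25h by Pearson's r were Scg2 at 0.99, Slc27a1 at 0.99, Clic5 at 0.98, Vmn2r19 at 0.98 and Ddah1 at 0.97. Scg2, the secretory granule protein secretogranin II, was at 7.26 ± 0.13 in NU7441 and 7.77 ± 0.11 in DMSO (SD, n = 3 each). Slc27a1, a fatty acid transport protein, was at 9.48 ± 0.13 in NU7441 and 9.94 ± 0.14 in DMSO. In each of the 5 genes the NU7441 arrays lay below the DMSO arrays, and DMSO 2 was the highest array, which follows from their choice by likeness to Ch25h. Their differences ran from -0.46 for Slc27a1 to -0.71 for Clic5, an intracellular chloride channel protein, all smaller than that of Ch25h. Ddah1, which breaks down methylated arginines, was at 9.57 ± 0.08 in NU7441 and 10.13 ± 0.10 in DMSO (SD, n = 3 each). Vmn2r19, a vomeronasal receptor gene, was at only 2.02 in NU7441 and 2.61 in DMSO, far below the lower quartile of the arrays.

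**Figure D3:**
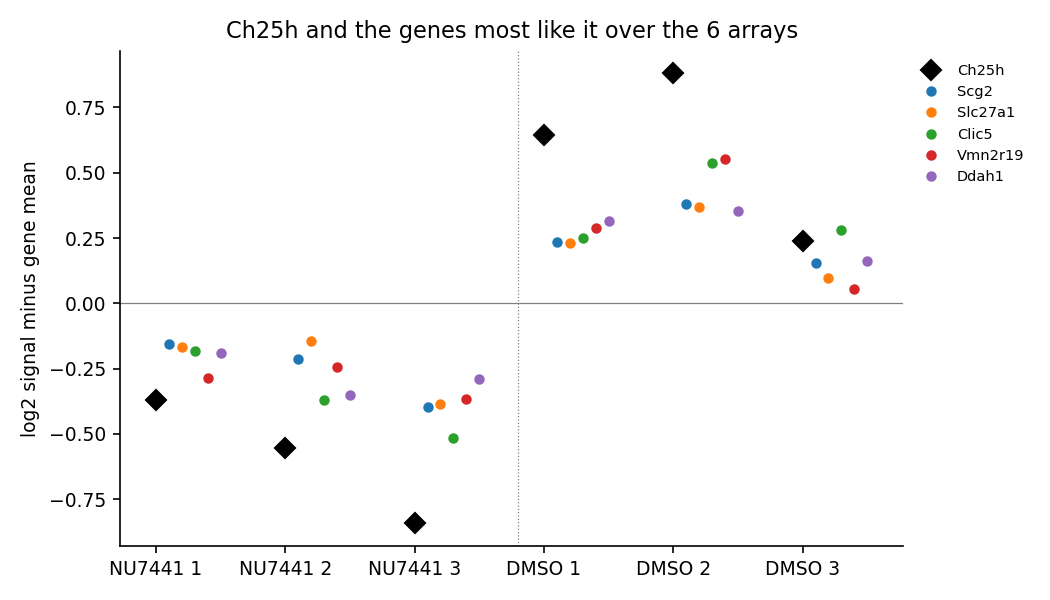
Log2 signal of Ch25h (diamonds) and of the 5 genes with the highest Pearson correlation to it, each minus the gene's mean over the 6 arrays (vertical axis), by array. All 6 genes lie below 0 in the NU7441 arrays and above 0 in the DMSO arrays, with the highest value in DMSO 2.

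Ch25h is a gene of 1366 bases on mouse chromosome 19, between Fas and Lipa and next to the Ifit cluster of interferon-induced genes, in the GRCm38.p6 gene table. Its neighbours were looked up after the values were seen. Fas, a death receptor, differed by 0.13 (SE 0.11). Lipa, the lysosomal acid lipase that frees cholesterol from its esters, was at 10.41 ± 0.05 in NU7441 and 10.52 ± 0.09 in DMSO (SD, n = 3 each), a difference of -0.11 (SE 0.07). Beyond Lipa, Ifit2 differed by 0.04 (SE 0.11) and Ifit3 by -0.08 (SE 0.06). Of 4 genes on each side, Stambpl1 had the largest size, at -0.22 (SE 0.07), and was the one whose groups did not overlap, 1 of 8 where all genes gave 6.13% above and 6.64% below. The 8 neighbours lay between -0.22 and 0.13.

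**Figure D4:**
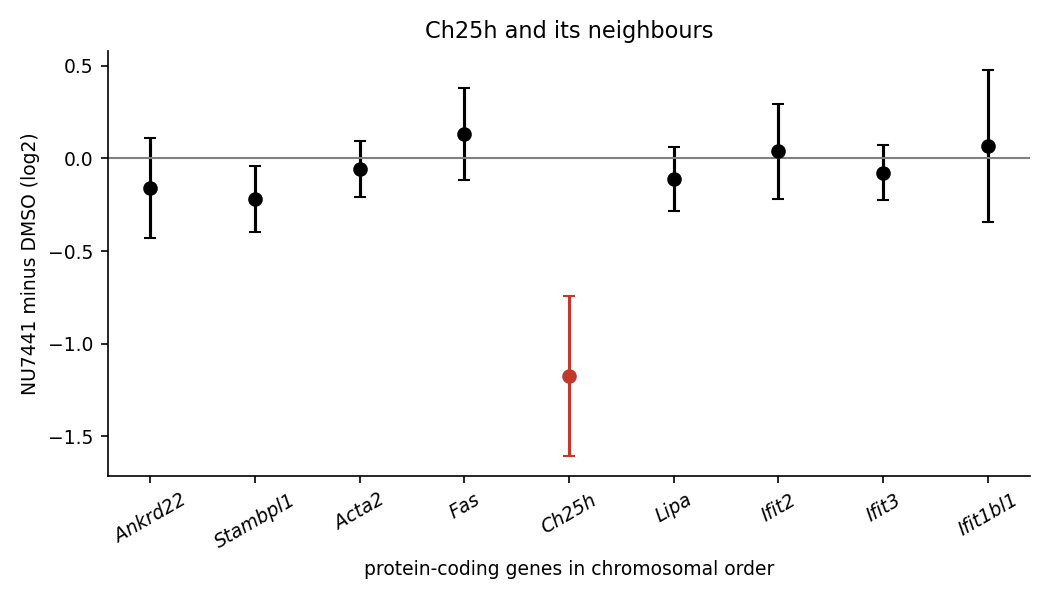
Log2 difference NU7441 minus DMSO (vertical axis) with its 95% interval from limma for Ch25h and the 4 nearest protein-coding genes on either side, in chromosomal order. Ch25h lies at -1.18 and the 8 neighbours between -0.22 and 0.13.

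The other genes of the pathway were taken as 7 lists of 113 genes, of which 97 were measured. Limma called 0 of the 97 over all genes. Of the 97, 5 reached an unadjusted p under 0.05 (5.15%, against 6.79% of all genes), with 1 higher and 4 lower in NU7441. With same-numbered samples as pairs there were 9 (9.28%, against 9.37% of all genes), the same 5 and Npc1, Tgm2, Vldlr and Usp18, with 2 higher and 7 lower. The median difference over the 97 was -0.004, against 0.004 over all genes.

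Enzymes of oxysterol and bile acid synthesis held 3 of the 5, among 13 measured (23.1%, against 6.79% of all genes). Of these 1 was higher and 2 were lower in NU7441, and 0 were called. The median of the list was -0.02, and it was 0.02 without NU7441 1, 0.02 without DMSO 1 and -0.08 without DMSO 2. Cyp39a1, an oxysterol 7α-hydroxylase, was at 8.49, 8.43 and 8.76 in NU7441, against 8.18, 7.91 and 8.16 in DMSO. The NU7441 arrays were all above the DMSO arrays, as they were for 6.13% of all genes, with a difference of 0.48 (SE 0.12, limma adjusted p = 0.643). Hsd3b7, the steroid dehydrogenase that acts on 7α-hydroxylated oxysterols and so follows Cyp7b1, was at 8.98, 8.93 and 8.86 in NU7441, against 9.21, 9.25 and 9.04 in DMSO. Its arrays were apart in the other direction, with a difference of -0.24 (SE 0.08, limma adjusted p = 0.698). Cyp8b1, a sterol 12α-hydroxylase of bile acid synthesis, differed by -0.18 (SE 0.07), and Baat, which conjugates bile acids, by 0.15 (SE 0.07) at a level near the lower quartile of the arrays.

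Of the sterol-binding and transport proteins 5 of 22 were higher and 17 lower in NU7441, where all genes had 11371 higher and 10809 lower. In the fit without pairs 1 of the 22 reached an unadjusted p under 0.05 in limma (4.55%, against 6.79% of all genes). The median of the list was -0.05, and it was -0.01 without NU7441 3 and -0.02 with quantile normalization. Osbpl3, an oxysterol-binding protein relative, differed by -0.24 (SE 0.08), Npc1, which moves cholesterol out of the lysosome, by -0.18 (SE 0.08), Gramd1b, which carries cholesterol to the endoplasmic reticulum, by -0.20 (SE 0.11) and Stard5, a soluble sterol carrier, by -0.34 (SE 0.21). Osbpl3 was at 8.51, 8.41 and 8.37 in NU7441, against 8.81, 8.58 and 8.63 in DMSO, and did not pass over all genes (limma adjusted p = 0.699). Most of the Stard5 difference came from DMSO 2, at 10.19, where the other 5 arrays lay between 9.26 and 9.57. In the list of lipoprotein receptors and cholesterol ester genes 4 of 6 were lower, with a median of -0.09. Nceh1, the neutral hydrolase of cholesterol esters, was at 8.94, 9.03 and 8.85 in NU7441, against 9.28, 9.29 and 9.16 in DMSO. The groups were apart, at -0.31 (SE 0.08, limma adjusted p = 0.643). Vldlr, a lipoprotein receptor that Mylip also targets, differed by -0.32 (SE 0.20), and Lcat, which esterifies plasma cholesterol, by 0.08 (SE 0.07).

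The other LXR targets had 12 of 17 measured genes higher in NU7441 and 5 lower, with differences between -0.23 and 0.18. The median of 0.04 was 0.01 without DMSO 1 and 0.07 without NU7441 3. None had an unadjusted p under 0.05 in limma without pairs. Srebf1, the transcription factor through which LXR drives fatty acid synthesis, differed by 0.02 (SE 0.06), Scd1, a fatty acid desaturase, by -0.01 (SE 0.08), and the apolipoprotein gene Apoe by 0.03 (SE 0.08). Tgm2, a transglutaminase, differed by -0.23 (SE 0.11), Lpl, lipoprotein lipase, by 0.18 (SE 0.11), Cd5l, a secreted macrophage protein, by 0.14 (SE 0.11) and Lpcat3, a phospholipid acyltransferase, by 0.09 (SE 0.07). Lpcat3 was at 10.73, 10.70 and 10.74 in NU7441, against 10.64, 10.56 and 10.70 in DMSO, with groups apart by a narrow gap. Lpl and Cd5l were below the arrays' lower quartiles.

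Genes of SREBP2 and cholesterol synthesis, which oxysterols hold down by retaining SREBP2 in the endoplasmic reticulum, had 9 of 17 higher and 8 lower, and differences between -0.11 and 0.10. Their median was 5.46e-05 over all arrays, -0.09 without DMSO 2 and 0.06 without DMSO 3. Fdps, of the isoprenoid branch, differed by -0.11 (SE 0.08), Hmgcs1, at the head of the pathway, by 0.10 (SE 0.10), the lanosterol synthase Lss by -0.10 (SE 0.12) and the sterol reductase Tm7sf2 by 0.10 (SE 0.13). RXR partners and cofactors had 4 of 7 higher, with Ncoa2 at 0.13 (SE 0.07), Ncoa3 at -0.08 (SE 0.06), Rxrg at -0.13 (SE 0.12) and Rxra, the retinoid X receptor α, at 0.04 (SE 0.06). In neither list did a gene reach an unadjusted p under 0.05 in limma, with or without pairs.

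Interferon-induced genes, the group to which Ch25h belongs in mouse macrophages, had 11 of 15 higher and 4 lower, with a median of 0.03. Usp18, which dampens interferon signalling, was at 8.23, 8.69 and 7.81 in NU7441, against 7.90, 8.49 and 7.14 in DMSO. In both groups the array numbered 2 was the highest and the array numbered 3 the lowest, and the groups overlapped, with a difference of 0.40 (SE 0.35). The chemokine gene Cxcl10 differed by 0.19 (SE 0.14) and the transcription factor Irf1 by -0.16 (SE 0.12). The median of the list was 0.30 without DMSO 2 and -0.21 without DMSO 3, so its direction depends on single arrays.

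**Figure D5:**
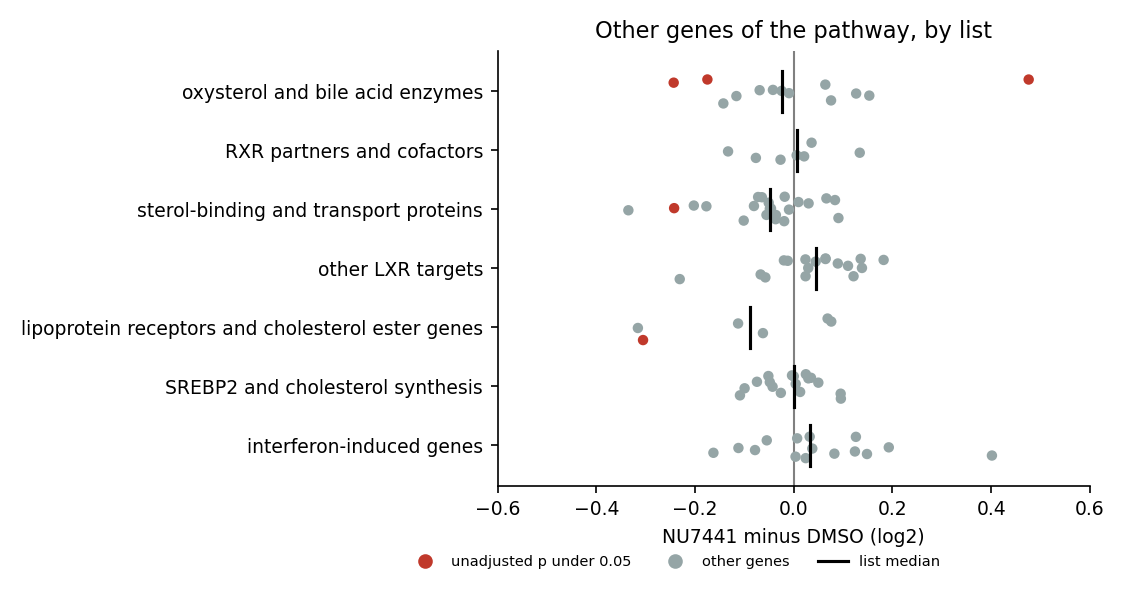
Log2 difference NU7441 minus DMSO (horizontal axis) of the 97 measured genes of 7 lists, 1 point per gene, with the list median as a vertical bar and genes at an unadjusted p under 0.05 in red. The 5 red points are Cyp39a1, Hsd3b7, Cyp8b1, Osbpl3 and Nceh1, and the list medians lie between -0.09 and 0.04.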

How the data were processed

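RNA of 6 MC3T3-E1 samples was measured on Affymetrix arrays. In the deposited table each probe set has a log2 value per array. The log2 scale was read from its range, and how the authors made the values is not given in the sources used here. They were used with no further normalization. Groups and replicate numbers came from the labels.

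Of 41345 probe sets the platform annotation gave 1 symbol to 23521, several to 1814 and none here to 16010, and only the first kind was named. Of the 23521, 23328 had their Entrez number in the reference gene table and 0 symbols changed through it. The probe set with the highest mean stood for a gene. Differences, moderated standard errors and 95% intervals came from limma (version 3.58.1, under R 4.3.3) with group as its single term (functions lmFit and eBayes). Two-sided p-values were adjusted by Benjamini-Hochberg over 22180 genes, at a threshold of 0.05. The fit was tested on simulated data. Figures were drawn with matplotlib 3.10.9.

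The members, the lists and the rule for named genes (all members, 4 genes of smallest p per list, 5 genes most like Ch25h among those that are not predicted genes, small RNAs, immunoglobulin or olfactory receptor genes) were chosen with earlier results of these data known. Srebf1, Scd1, Apoe, Atp1b1, Car6 and the neighbours were named after their values were seen.

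Over genes, deviations from the group mean correlated at 0.149 to 0.339 between same-numbered samples and at -0.246 to 0.0938 between others. Deviations within a group sum to 0, so these correlations depend on each other and cannot settle whether the numbers pair the samples. The labels state no pairing. The main fit therefore had no pairs, and pairs by number served as an alternative. Alternatives were the replicate block, array weights, a variance trend with robust prior, arrays centred on the median or quantile normalized, dim genes left out, averaged probe sets, and each array left out.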

Additional observations from a re-analysis of the deposited data

How the results depend on the processing

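The count of 0 genes called by limma was the same under 14 of 15 alternatives, the replicate block among them. The exception was a replicate block with an intensity trend and a robust prior, chosen after seeing the data. It called 100 genes, of which Ch25h was 1 and none was among the listed pathway genes. Ch25h had been chosen by its difference in these same values, so its call is not a test. That setting put 2483 genes at an unadjusted p under 0.05. The replicate block alone gave 2078 and called 0 at the adjusted level. It left the differences as they were, but brought the listed genes at an unadjusted p under 0.05 to 9, against 5 without it, and moved 0 out of the intervals of Abca1 and Mylip. The upper 50 percent of genes by level gave 933, of 11090 tested. Leaving out 1 array gave between 1174 and 1746 genes at that level and 0 called. Ch25h, chosen for its fall, stayed lower in NU7441 under 15 of 15 alternatives. It was between -1.35 and -1.03 without 1 array, and at -0.76 as the mean of its probe sets. Cyp7b1, Abca1, Abcg1 and Mylip kept their sign in the alternatives that tested them. Leaving out 1 array turned the sign of Cyp27a1 (to 0.03 without DMSO 2), Gpr183 (to -0.02 without DMSO 2) and Nr1h3 (to 0.04 without DMSO 1 and 0.01 without NU7441 2), none of them called. The medians of the oxysterol enzyme, RXR, cholesterol synthesis and interferon lists changed sign in 2 to 5 alternatives each, and the cause was not tested. The sterol-binding and other LXR target medians kept their sign but moved by over 1.5 times. The number of arrays, 3 a group, limits the precision, and for dim probe sets such as Cyp27a1 signal over background was not analysed here.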
